A study of Mus musculus with 8 samples.

Results

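CD4, regulatory and pan T cell genes were followed in colon biopsies of bone marrow chimeras as a set of 10 genes out of 26008 in the deposited table. Each was taken by name: Cd3d, Cd3e, Cd3g, Cd247 and Lck as pan T cell genes, and Cd4, Foxp3, Il2ra, Ctla4 and Icos as CD4 and regulatory genes. The recipients were male C57BL/6JRj mice, 7 weeks old when they were lethally irradiated and grafted, and each of 4 received bone marrow from penk-/- donors and each of 4 from penk+/+ donors. The donors were males of 9 to 11 weeks, the knockout donors were congenic mice of the strain B6.129-Penk-rstm1Pig/J, and the biopsies were taken 18 to 21 weeks after the graft, with 1 library of messenger RNA per mouse. Both groups thus shared irradiation, grafting and a penk+/+ host, and the deletion was carried only by the grafted blood-forming cells and their progeny, so that epithelium, muscle and enteric neurons of either group kept Penk. Penk, the gene of proenkephalin, accordingly gave no check of the labels in whole tissue: its normalized counts were 528 ± 67.5 (SD, n = 4) in penk-/- and 541 ± 73.2 (n = 4) in penk+/+ chimeras. The comparison asks whether T cell transcripts of the colon differ when the grafted leukocytes lack Penk. The study reported a replacement of marrow cells by donor cells that was high but not complete. It found Penk mRNA of spleen CD4 T cells reduced in penk-/- chimeras, so leukocyte Penk was lowered and not fully removed.

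T lymphocytes recognize antigen through a receptor whose variable chains have no signalling tail of their own. The signal is carried by CD3 gamma, delta and epsilon and by the zeta chain, which are phosphorylated by the kinase Lck, itself brought to the complex by the CD4 or CD8 coreceptor. Foxp3 is the transcription factor that defines regulatory T cells, which are abundant in the gut wall and restrain responses to food and microbes, and which carry high levels of the interleukin-2 receptor alpha chain, of the inhibitory receptor CTLA-4 and of the costimulatory receptor ICOS.

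Cd3e, Cd3d and Cd3g lie side by side on chromosome 9, within 40056 bases, and the starts of Cd3g and Cd3d, which are read in opposite directions, are 1347 bases apart. The 200 bases before the start of these 3 genes and of Foxp3, the X-linked gene with the lowest counts of the set, are printed 5′ to 3′ because Cd3e and Foxp3 had the largest genotype differences and Cd3d and Cd3g share the locus of Cd3e. They were read from the mouse genome GRCm39 at chr9:44892883-44893082 (plus strand), chr9:44920912-44921111 (minus strand), chr9:44891736-44891935 (minus strand) and chrX:7445708-7445907 (plus strand). Capitals mark the ETS-type motif GGAAGT, in either orientation.
Cd3d: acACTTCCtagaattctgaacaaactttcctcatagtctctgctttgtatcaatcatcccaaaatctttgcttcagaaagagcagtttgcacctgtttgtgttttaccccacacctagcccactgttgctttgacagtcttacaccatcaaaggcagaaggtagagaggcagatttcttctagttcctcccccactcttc
Cd3e: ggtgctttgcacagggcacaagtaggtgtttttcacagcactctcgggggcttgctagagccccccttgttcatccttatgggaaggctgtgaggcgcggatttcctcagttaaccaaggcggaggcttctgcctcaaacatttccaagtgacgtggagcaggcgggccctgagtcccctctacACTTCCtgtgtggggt
Cd3g: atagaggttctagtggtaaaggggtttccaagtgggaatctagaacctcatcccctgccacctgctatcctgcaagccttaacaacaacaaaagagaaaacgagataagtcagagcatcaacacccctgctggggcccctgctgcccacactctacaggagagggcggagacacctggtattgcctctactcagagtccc
Foxp3: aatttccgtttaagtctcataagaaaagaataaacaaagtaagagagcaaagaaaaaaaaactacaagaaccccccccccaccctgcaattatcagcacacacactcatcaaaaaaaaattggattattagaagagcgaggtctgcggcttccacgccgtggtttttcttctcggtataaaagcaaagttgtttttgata
GGAAGT was present in this window in 7 of the 10 genes (Cd247, Cd3d, Cd3e, Cd4, Icos, Il2ra and Lck), against 16.8% of 16860 promoters of the same length. The RUNX-type motif TGTGGT was present in 2 (Icos and Lck), against 9.87% of promoters, and the E-box CAGCTG in 0, against 9.73%. All motifs were searched on both strands, none contains another, and are described here only as matches.

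T cell transcripts were scarce in the biopsies. On the scale of normalized counts per kilobase of exon, the mean level over the 8 mice was 23.5 for Cd4, 22.2 for Lck, 8.26 for Cd3g, 7.25 for Icos, 6.06 for Cd3d, 5.15 for Cd3e, 5.08 for Ctla4, 4.95 for Il2ra, 1.79 for Foxp3 and 1.78 for Cd247. The epithelial adhesion gene Epcam stood at 23719 on that scale and the leukocyte gene Ptprc, which encodes CD45, at 48.8. Between neighbours in the order, Lck exceeded Cd3g in 8 of 8 mice and Il2ra exceeded Foxp3 in 8 of 8, whereas each other neighbour was the higher in only 3 to 5 of the 8. Every deposited value was a whole multiple, within 0.01, of a step fixed for its library, which allowed the reads behind each value to be read back: 33122556 to 50677005 reads per library, but only 6 to 32 reads for Cd3e and 3 to 16 for Foxp3. The SD between mice exceeded that of counting alone most for Cd4 (3.55 times), Il2ra (2.39) and Icos (2.17), and least for Cd247 (1.10) and Ctla4 (1.04), whose spread was close to that of counting.

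No member passed the test of genotype. Of the 10 genes, 9 reached the minimum mean of 10 normalized counts and entered the limma fit with 19127 genes in all, 0 had an adjusted p below 0.05 and 0 an unadjusted p below 0.05, where 0% and 9.63% of all genes did. This limma fit called no gene at all, with a smallest adjusted p of 0.132. The study's own DESeq2 test of these libraries, at its own thresholds, did report a few genes as differentially expressed. The groups overlapped for each of the 10, against 5.63% of genes whose groups did not. The log2 difference, penk-/- minus penk+/+, was below 0 for 7 members and above 0 for 3, against 48.9% of all genes below 0, with a median of all genes of 0.005 and quartiles of -0.12 and 0.12. Every member's 95% interval held 0. An exact permutation test of single genes, two-sided over 70 assignments, could not fall below 0.0286, and its smallest value among the members was 0.0857.

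**Figure D1:**
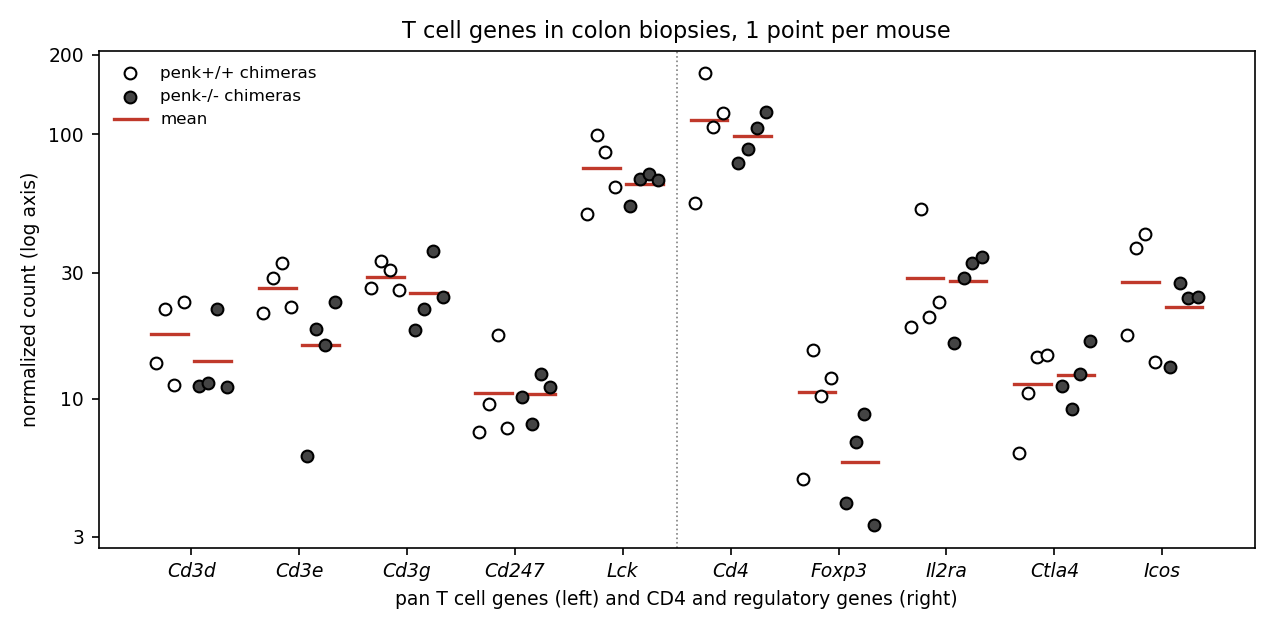
Normalized counts of the 10 T cell genes on a log axis, 1 point per mouse (open, penk+/+; filled, penk-/-), with red bars for the mean of each group of 4. The groups overlap for every gene, and Cd3e of penk-/- replicate 1 (6.06) lies far below the other 7 mice.

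The CD3 chains were lower on average in penk-/- chimeras, most of all Cd3e, which encodes the epsilon chain found in every T cell receptor complex. Cd3e normalized counts were 6.06, 18.3, 16.0 and 23.2 in penk-/- replicates 1 to 4 and 21.2, 28.5, 32.7 and 22.3 in penk+/+ replicates 1 to 4. Only penk-/- replicate 4 reached the penk+/+ range, and penk-/- replicate 1 stood lowest, on 6 reads, for which the exact Poisson 95% interval was 2.22 to 13.2 normalized counts. The means were 15.9 ± 7.21 (SD, n = 4) and 26.2 ± 5.43 (n = 4), a log2 difference of -0.80 (SE 0.38, 95% interval -1.65 to 0.05), with an adjusted p of 0.542 by limma (unadjusted 0.0623, exact permutation p 0.0857). This difference rested in part on 1 mouse, since it was -0.42 without penk-/- replicate 1.

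Cd3d, the delta chain, measured 11.1, 11.5, 21.8 and 11.1 normalized counts in penk-/- and 13.7, 21.9, 11.2 and 23.2 in penk+/+ chimeras. Of the penk-/- mice, replicate 3 was level with the highest penk+/+ mice, and penk+/+ replicate 3 with the lowest penk-/- mice. Cd3g, the gamma chain, measured 18.2, 21.8, 36.3 and 24.3 in penk-/- and 26.1, 33.3, 30.7 and 25.7 in penk+/+ chimeras, with both the lowest and the highest mouse in the penk-/- group. The log2 differences were -0.32 (SE 0.33, 95% interval -1.05 to 0.42) for Cd3d and -0.23 (SE 0.24, interval -0.78 to 0.31) for Cd3g, with limma adjusted p of 0.804 and 0.806. Summed over the 3 chains, the level was 54.9 ± 16.1 in penk-/- and 72.6 ± 9.38 in penk+/+ mice (normalized counts ± SD, n = 4 each), and the groups overlapped.

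The remaining pan T cell genes encode the signalling partners of CD3. Cd247, the zeta chain, measured 10.1, 8.01, 12.4 and 11.1 normalized counts in penk-/- and 7.47, 9.51, 17.4 and 7.72 in penk+/+ chimeras, so that penk+/+ replicate 3 was the highest and the other penk+/+ mice lay with or below the penk-/- mice. Lck measured 53.5, 67.5, 70.5 and 67.4 in penk-/- and 49.8, 99.8, 85.9 and 63.5 in penk+/+ chimeras, with the penk-/- mice inside the penk+/+ range. The log2 differences were 0.04 (SE 0.32, 95% interval -0.66 to 0.75) for Cd247 and -0.16 (SE 0.23, interval -0.67 to 0.35) for Lck, with limma adjusted p of 0.981 and 0.868. Exons of Cd247 overlap those of Pou2f1 on the opposite strand, whose mean of 722 normalized counts was far higher. The strand setting used in counting is not given in the sources used here, although the library kit keeps strand. On the same strand, exons of Cd247 also overlap those of the long noncoding RNA Gm16565 (mean 2.16), which strand cannot separate.

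Cd4, the coreceptor of helper and regulatory T cells, which mouse dendritic cells can carry too, was the most abundant member. Its normalized counts were 77.8, 88.2, 105 and 122 in penk-/- and 54.8, 170, 106 and 121 in penk+/+ chimeras. The penk+/+ group held both the lowest and the highest mouse, and the penk-/- mice lay between them. The means were 98.2 ± 19.3 and 113 ± 47.5 (SD, n = 4), and the log2 difference of -0.11 (SE 0.31, 95% interval -0.81 to 0.59) had a limma adjusted p of 0.943.

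Foxp3 normalized counts were 4.04, 6.87, 8.72 and 3.32 in penk-/- and 4.98, 15.2, 10.2 and 12.0 in penk+/+ chimeras. All but 1 of the penk+/+ mice were above every penk-/- mouse, the exception being penk+/+ replicate 1, and no library held more than 16 reads. With means of 5.74 ± 2.51 and 10.6 ± 4.28 (SD, n = 4 each), Foxp3 fell below the minimum for the limma fit. Fitted without that minimum, the log2 difference was -0.77 (SE 0.41, 95% interval -1.69 to 0.15, limma adjusted p 0.671, unadjusted 0.0905), and the exact permutation p was 0.114. Exons of Foxp3 overlap those of Ppp1r3f on the opposite strand (mean 28.5 normalized counts). They also overlap those of Flicr, a long noncoding RNA on the same strand (mean 2.93), which strand cannot separate.

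The surface receptors of regulatory and activated T cells had closer group means than Foxp3. Il2ra measured 16.2, 28.6, 32.7 and 34.3 normalized counts in penk-/- and 18.7, 52.3, 20.4 and 23.2 in penk+/+ chimeras, and penk+/+ replicate 2 alone stood far above its group. Ctla4 measured 11.1, 9.16, 12.4 and 16.6 in penk-/- and 6.22, 10.5, 14.3 and 14.6 in penk+/+ chimeras. Icos, which lies 62094 bases from Ctla4 on chromosome 1, measured 13.1, 27.5, 24.0 and 24.3 in penk-/- and 17.4, 37.1, 41.9 and 13.7 in penk+/+ chimeras. High and low mice were found in both groups for each of these receptors. The log2 differences were 0.04 (SE 0.37, 95% interval -0.78 to 0.86) for Il2ra, 0.14 (SE 0.32, interval -0.59 to 0.86) for Ctla4 and -0.20 (SE 0.39, interval -1.09 to 0.69) for Icos, with limma adjusted p of 0.986, 0.926 and 0.912.

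**Figure D2:**
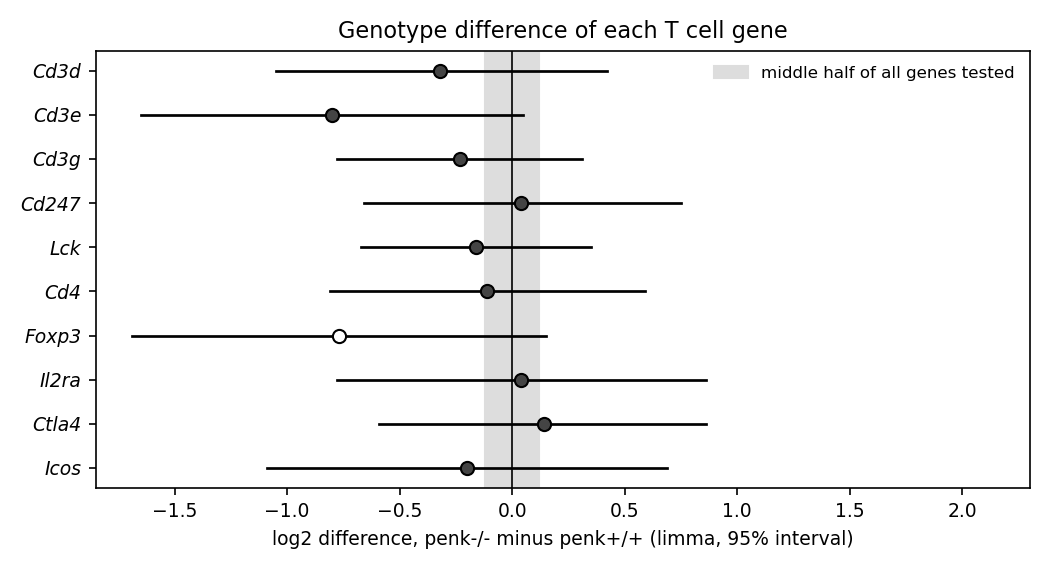
Log2 difference of each T cell gene, penk-/- minus penk+/+, with its 95% limma interval (n = 4 each); the open point is Foxp3, fitted without the minimum on counts, and the grey band runs between the quartiles of all 19127 genes tested (-0.12 and 0.12). Each interval holds 0, and those of Cd3e (-1.65 to 0.05) and Foxp3 (-1.69 to 0.15) lie furthest to the left.

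Set against each other, pan T cell genes and CD4 and regulatory genes did not separate by genotype. A score, the mean over the genes of the log2 value centred on the mean of the 8 mice, differed by -0.29 for the 5 pan T cell genes and by -0.18 for the 5 CD4 and regulatory genes, penk-/- minus penk+/+. The second score minus the first was 0.04, 0.16, -0.06 and 0.08 in penk-/- and -0.43, 0.27, -0.07 and 0.00 in penk+/+ chimeras. The penk+/+ range enclosed the penk-/- values, and the difference was 0.11. With 1 library left out, this difference ran from -0.01 (without penk+/+ replicate 1) to 0.22 (without penk+/+ replicate 2), that of the pan T cell score from -0.41 (without penk-/- replicate 3) to -0.16 (without penk-/- replicate 1), and that of the CD4 and regulatory score from -0.41 (without penk+/+ replicate 1) to 0.00 (without penk+/+ replicate 2). Cd4 per summed Cd3 count, a ratio of normalized counts, was 1.85 ± 0.35 in penk-/- and 1.51 ± 0.48 in penk+/+ mice (SD, n = 4), with overlapping groups. No member passed the test. In whole tissue, a lower value would not tell fewer T cells from less of these transcripts per T cell.

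Leukocyte content differed from biopsy to biopsy within each genotype. The score of 5 general leukocyte markers (Ptprc, Coro1a, Laptm5, Cd53 and Lcp1) was -0.41, 0.07, 0.28 and 0.42 in penk-/- and -0.69, 0.36, 0.15 and -0.19 in penk+/+ chimeras, and 5 of the 5 markers had a log2 difference above 0 with 0 past the test. B cell and follicle markers spread more widely: their 8 genes summed to 387 to 2307 normalized counts in penk-/- and 449 to 2236 in penk+/+ chimeras, with the highest sums in penk-/- replicate 4 and penk+/+ replicate 2. Of these mice, penk+/+ replicate 2 was also the one with the most Cd4, Lck, Foxp3 and Il2ra. By contrast, penk-/- replicate 4 had the lowest Foxp3 of the 8 mice (3.32 normalized counts). Its Cd4 (122) and Il2ra (34.3) came next below those of penk+/+ replicate 2, and its Lck (67.4) lay inside the range of the other mice. None of the 8 markers was at 0 in all libraries, their median log2 difference was 0.31, and their part in the T cell values was not tested.

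**Figure D3:**
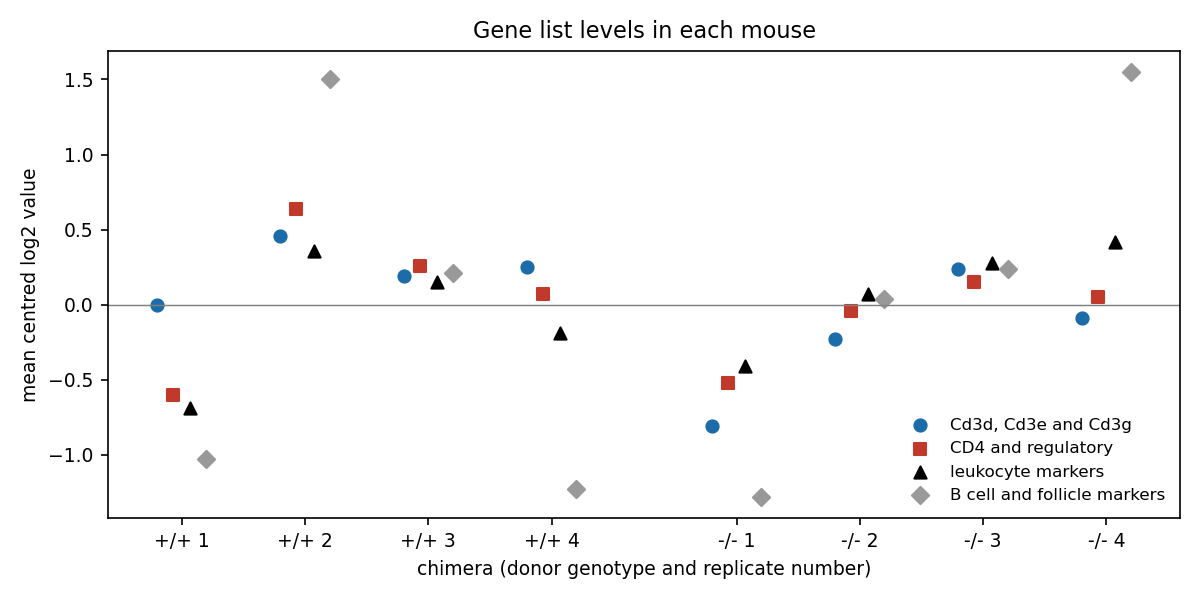
Score of 4 gene lists (mean log2 value of the genes, each centred on its mean over 8 mice) in each chimera, by donor genotype and replicate number. B cell and follicle markers are highest in penk+/+ replicate 2 and penk-/- replicate 4 (1.55), and the Cd3 genes lie above the leukocyte markers in the 4 penk+/+ mice and below them in the 4 penk-/- mice.

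Relative to these leukocyte markers, several T cell genes lay lower in penk-/- chimeras, in comparisons chosen after the values were seen. By flow cytometry, the study reported the opposite direction for CD4 T cells, a slightly but significantly higher frequency among colonic leukocytes of penk-/- chimeras. That measure was a share of cells in other sets of chimeras, whereas the values here are transcripts of whole tissue. The Cd3d, Cd3e and Cd3g score minus the leukocyte score was -0.40, -0.30, -0.05 and -0.51 in penk-/- and 0.69, 0.10, 0.04 and 0.44 in penk+/+ chimeras. Every penk-/- mouse was below every penk+/+ mouse, by as little as the gap between -0.05 and 0.04, and the difference of the means was -0.63. Taken singly against the leukocyte score, the log2 difference was below 0 for 10 of 10 members, and the groups did not overlap for 3. These were Cd3e (-0.98), Foxp3 (-0.96) and, narrowly, Lck (-0.35, highest penk-/- mouse 0.06, lowest penk+/+ mouse 0.08). Of all genes tested, 0.69% did not overlap on this scale, against 5.63% unscaled, and Foxp3 was not among the genes tested. The share among genes that follow leukocyte content was not computed, so 0.69% does not show how unusual 3 of 10 members are. That scaling moved the median of all genes to -0.18 and put 84.2% of them below 0, and the median of the members was -0.37. It also left 0 members with a limma adjusted p below 0.05. A ratio that differed from this in scale, in reference gene and in how the chains were combined overlapped between genotypes: summed Cd3 counts per 1000 Ptprc counts were 54.4, 61.3, 73.9 and 45.2 in penk-/- and 120, 64.5, 73.9 and 99.8 in penk+/+ chimeras.

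Foxp3 was also read against Cd4, within each library, as a ratio chosen after the values were seen. By flow cytometry of other sets of chimeras, the study reported no change in the frequency of colonic regulatory T cells, a measure of cells and not of transcripts. There were 5.20, 7.79, 8.28 and 2.73 Foxp3 reads per 100 Cd4 reads in penk-/- and 9.09, 8.94, 9.62 and 9.93 in penk+/+ chimeras. The penk-/- mice were all below the penk+/+ mice, with means of 6.00 ± 2.57 and 9.39 ± 0.46 (SD, n = 4 each). Of the genes tested, 0.261% did not overlap relative to Cd4, against 5.63% on their own values, and Foxp3 was not among the genes tested. The share among genes that vary with Cd4 was not computed, so 0.261% does not show how unusual the ratio is. The ratio rested on 25 Foxp3 reads against 409 Cd4 reads in penk-/- and on 44 against 468 in penk+/+ chimeras. Exact (Clopper-Pearson) 95% intervals ran from 2.77 to 17.8 in penk-/- replicate 2 and from 4.48 to 18.4 in penk+/+ replicate 3, and those of 7 of the 8 libraries held the penk+/+ mean. The spread of the penk+/+ mice, 0.46, was well under the SD of 3.42 that counting alone would give. The log2 form of the difference, -0.66, was -0.36 without penk-/- replicate 4. In all, 13 scores and 6 ratios were computed, the groups did not overlap for 4 of the scores and 1 of the ratios, several of these share genes, and none was given a p.

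**Figure D4:**
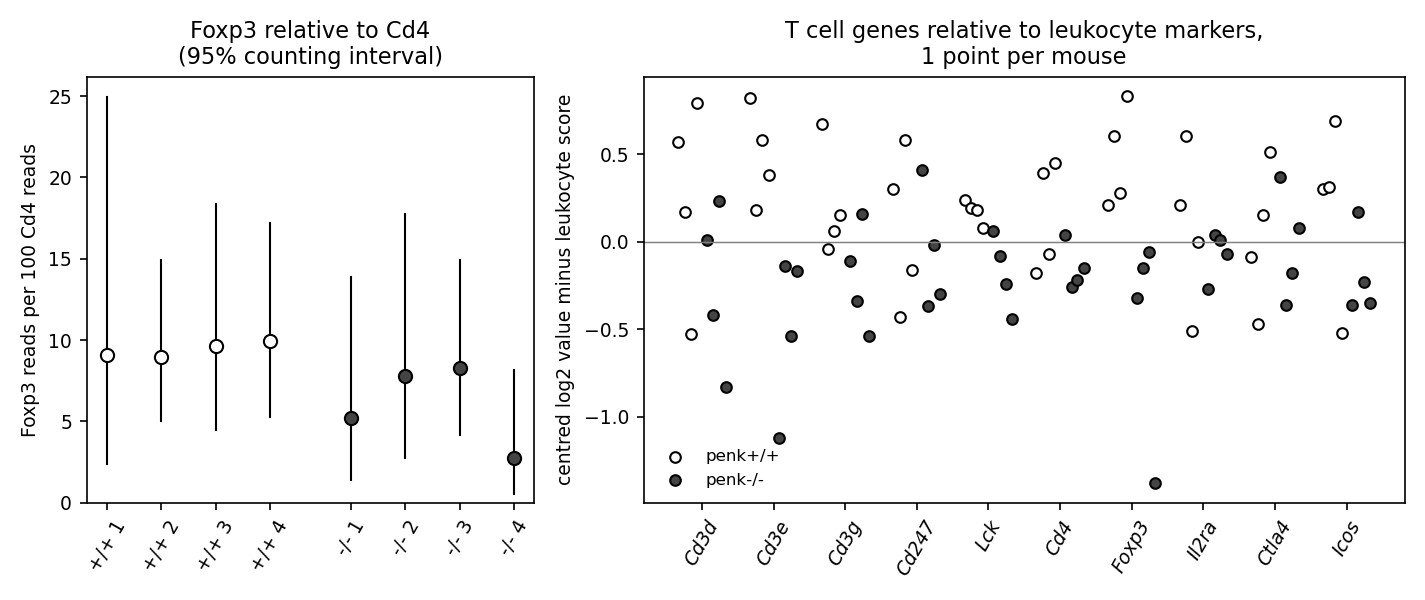
Left, Foxp3 reads per 100 Cd4 reads in each chimera with exact 95% counting intervals; right, centred log2 value of each T cell gene minus the leukocyte score, 1 point per mouse (open, penk+/+; filled, penk-/-). The penk-/- ratios (2.73 to 8.28) lie below the penk+/+ ratios (8.94 to 9.93) while their intervals overlap, and in the right panel the groups do not overlap for Cd3e, Foxp3 and Lck.

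Of 20 further genes of the T cell receptor and its signalling 17 were tested, 10 were higher and 7 lower in penk-/- chimeras, the median log2 difference was 0.13, and 0 had an adjusted p below 0.05 by limma. Trac, the constant region of the receptor alpha chain, averaged 21.1 ± 6.30 in penk-/- and 22.0 ± 9.21 in penk+/+ mice (normalized counts ± SD, n = 4 each), and Trbc2, of the beta chain, 20.1 ± 6.17 and 22.2 ± 10.6. The T lineage factors Bcl11b (log2 difference 0.31, SE 0.12, limma adjusted p 0.452) and Tcf7 (0.32, SE 0.13, limma adjusted p 0.483) were the 2 of 17 genes with an unadjusted p below 0.05, at 0.0231 and 0.0361. That share was near the 9.63% of all genes. Per kilobase their levels were 109 and 51.1, far above the 5.15 of Cd3e, and which cells made them was not tested. Trac and Trbc2 were taken after their values were seen, as the receptor's own chains.

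Of 17 further genes of regulatory T cells 14 were tested, 7 higher and 7 lower, with a median log2 difference of 0.10 and 0 past the adjusted threshold. Ikzf2, which encodes Helios, measured 681, 675, 547 and 734 normalized counts in penk-/- and 773, 959, 820 and 859 in penk+/+ chimeras. It was the 1 gene of the 14 whose groups did not overlap, with every penk-/- mouse below every penk+/+ mouse, a share near the 5.63% of all genes. The log2 difference was -0.38 (SE 0.11) with a limma adjusted p of 0.353 and an unadjusted p of 0.00584. Per kilobase its level of 57.8 was far above that of Foxp3, and which cells made it was not tested. Lrrc32, which holds latent TGF-beta at the cell surface (log2 difference 0.31, SE 0.21, limma adjusted p 0.681), and Il1rl1, the interleukin-33 receptor (-0.42, SE 0.31, adjusted p 0.703), did not pass the test.

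Of 11 helper T cell genes analysed 8 were tested, 6 higher and 2 lower (median log2 difference 0.12, 0 past the adjusted threshold). Il17a, Ifng and Il21 were also listed, but no deposited values were found under those names. Gata3, a factor of type 2 helper cells taken after its values were seen, reached 727 normalized counts in penk-/- replicate 3 and 689 in penk+/+ replicate 4, against 5.05 to 94.6 elsewhere. These were also the 2 libraries with the most Pbsn, a gene of male accessory glands, at 105658 and 111024 normalized counts. The costimulatory and MHC class II ligands of CD4 T cells were 5 higher and 1 lower of 6 tested (median 0.30), and H2-Eb1, a class II chain, differed by 0.31 (SE 0.23, limma adjusted p 0.705). Il2, the gene of the T cell growth factor interleukin-2, fell below the minimum for the test and is given after its values were seen. It had 0, 0, 1 and 1 reads in penk-/- replicates 1 to 4 and 1, 2, 6 and 4 in penk+/+ replicates 1 to 4, so 2 reads against 13 in all. Scaled to normalized counts, every penk-/- mouse was below every penk+/+ mouse, by as little as 1.10 against 1.25, where 3.08% of genes below the minimum did not overlap. Both of those closest values, in penk-/- replicate 4 and penk+/+ replicate 1, stood for 1 read. The reads thus tied there, and only the scaling of the libraries kept the groups apart. Among the listed genes below the minimum the groups also did not overlap for Sit1 and Tnfrsf9. Sit1, an adaptor of T cell signalling, was lower (2.18 to 4.42 normalized counts in penk-/- against 4.75 to 5.15 in penk+/+ mice). Its gap, from 4.42 in penk-/- replicate 4 to 4.75 in penk+/+ replicate 2, was smaller than 1 read in these libraries (1.105 and 0.9509 normalized counts). Tnfrsf9, a costimulatory receptor of activated and regulatory T cells, was higher (10.1 to 12.4 against 5.71 to 8.71).

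Markers of other cell types gave 0 genes past the adjusted threshold in each list. Macrophage and dendritic cell genes were higher for 8 of 9 (median log2 difference 0.24), epithelial genes lower for 6 of 6 (median -0.19), smooth muscle genes higher for 3 of 5 (median 0.05), and of the cytotoxic genes only 3 of 9 could be tested. Cd8a, the coreceptor of cytotoxic T cells, had means of 16.5 ± 10.2 in penk-/- and 23.4 ± 8.33 in penk+/+ mice (normalized counts ± SD, n = 4 each), with a log2 difference of -0.63 (SE 0.46, limma adjusted p 0.705). Gzmb, a protease of their granules, had means of 14.6 ± 6.97 and 7.84 ± 1.84 (log2 difference 0.73, SE 0.36, limma adjusted p 0.555). The sums of the epithelial and macrophage lists overlapped between genotypes, and their part in the T cell values was not tested.

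Across the 8 mice, 0 of 8 relations of T cell genes with each other or with markers had an adjusted permutation p below 0.05. Cd3e and Cd4 gave Pearson r 0.441 (permutation p 0.271, adjusted 0.434) and Spearman rho 0.690 (p 0.0694, adjusted 0.385), and r 0.501 without the 2 mice farthest from the median of Cd3e. Cd4 and Foxp3 gave r 0.600 (permutation p 0.114, adjusted 0.434) and rho 0.476 (p 0.243, adjusted 0.399), and r 0.311 without the 2 farthest. Among the genes whose log2 values were most like the Cd3d, Cd3e and Cd3g score, of 19118 compared over these 8 libraries, were Rspo2 (r 0.977), Lancl1 (0.973), Tmem132b (0.955) and Gm4890 (0.942). Picked as the highest of 19118 values of r over 8 mice, these relations were not tested, and values this high can arise by chance in such a search.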

How the data were processed

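RNA was taken from colon biopsies of 8 chimeras, 4 per donor genotype, grouped by the genotype in the labels. The deposited values were normalized counts, a signal per gene made by the authors, who aligned and quantified reads on GRCm39 with STAR 2.7.8a and then used DESeq2 1.30.0 (versions as in the submitters' processing notes). The strand setting is not given in the sources used here. All columns matched a sample (0 left out), and 25776 of 26008 gene identifiers had a name. Values were fitted as log2(value + 1), a scale that understates changes of low genes, with limma 3.58.1 (R 4.3.3; trended variance, Benjamini-Hochberg adjustment, threshold 0.05) over genes with a mean of at least 10. p-values measure the spread between these mice. Scripts were tested on simulated data.

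Reads were read back from the spacing of the values; intervals on them cover counting error only. Members and lists were chosen with earlier results of these data known. The text names all members, Penk, Pbsn and, from each list, genes among the 3 smallest p or the 3 most abundant; others are said to be chosen after their values. Some genes that this rule covers are not reported here. Lists cover T cell receptor signalling, regulatory and helper T cells, their ligands, leukocytes, B cells, cytotoxic and innate lymphocytes, macrophages, epithelium, smooth muscle and accessory gland. Promoters are the 200 bases before the canonical transcript start of GENCODE. Single genes and relations were tested by permutation (SciPy 1.17.1). Alternatives covered pseudocount, filter, variance model, scaling, the replicate block, each library left out, and 2 library pairs. The labels give no batch.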

Additional observations from a re-analysis of the deposited data

Results flagged for a closer look

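Of 32 groups of 4 mice examined, 2 held a mouse far from the other 3 of its genotype, where about 1.6 would be met at 1 in 20. Cd3d was highest in penk-/- replicate 3 (21.8 normalized counts against 11.1 to 11.5), with a gap of 0.963 of the group's range. That library was 1 of the 2 with the most accessory gland RNA. Il2ra was highest in penk+/+ replicate 2 (52.3 against 18.7 to 23.2), with a gap of 0.867, in 1 of the 2 libraries with the most B cell marker RNA.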

How the results depend on the processing

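Under every setting run, 0 members had an adjusted p below 0.05. Across all genes that count was 0 as reported, 1 with quantile normalization, 1 with the replicate block, 10 when libraries were scaled to the leukocyte markers, and 0 to 6 with 1 library left out (6 without penk-/- replicate 1). Genes at an unadjusted p below 0.05 went from 1842 to 2938 with the replicate block, 434 with leukocyte scaling and 989 without the libraries with the most B cell RNA. The replicate numbers pair nothing in the labels, and deviations of same-numbered mice correlated at 0.14, -0.04, -0.32 and -0.16. With the replicate block Cd3e kept its log2 difference of -0.80 (unadjusted p 0.0466, adjusted p 0.319). Differences near 0 changed sign. Scaled to the leukocyte markers, a setting chosen after seeing the data, Cd247 was -0.14, Il2ra -0.15 and Ctla4 -0.05. Without the 2 libraries with the most accessory gland RNA, Cd247 was -0.15 and Il2ra -0.11. In that setting the difference of the pan T cell score was -0.44, against -0.29 in all 8 libraries. That of the CD4 and regulatory score was -0.27, against -0.18, and that of the second score minus the first was 0.17, against 0.11. Without the 2 with the most B cell RNA, also chosen after seeing the data, Cd247 was -0.01, Cd4 0.01 and Ctla4 -0.02, and Foxp3, at -0.77 in all 8 libraries, was -0.39. With 1 library left out, ranges were -0.08 to 0.29 for Cd247, -0.42 to 0.12 for Cd4, -0.12 to 0.36 for Il2ra, -0.10 to 0.27 for Ctla4, -0.47 to 0.04 for Icos, -1.02 to -0.42 for Cd3e, -0.54 to -0.17 for Cd3d, -0.42 to -0.10 for Cd3g, -0.34 to -0.01 for Lck and -1.06 to -0.58 for Foxp3. The r of Cd3e with Cd8a, 0.049, was -0.044 with quantile normalization and -0.312 centred within genotype. Without the 2 farthest libraries r of Cd3e with Epcam was 0.703 and with Myh11 -0.163. Centred within genotype, 1 relation passed the adjusted threshold (Cd3e with Myh11, r 0.830, adjusted permutation p 0.0409). Permuting over all pairings treats the centred values as free of one another, which centring prevents, so this p may be too small. The cause of these changes was not tested. The planned count tests on recovered reads were not run. Depth limits Foxp3, Cd3e, Cd3d, Ctla4 and Cd247, with at most 32 reads in any library.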
